A study of Mus musculus with 3 samples.

Results

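Endothelial cells of the adult mouse renal medulla had Ednrb, Calcrl, Ramp2 and Ramp3, the measured receptor genes of the endothelin and adrenomedullin systems, far above array background, together with the endothelin converting enzyme gene Ece1. Of the 4 listed ligand genes Edn1 was called above a background limit set at the 95th percentile of sensory receptor probe sets, and Edn2 and Edn3 were called above it as well when the limit was set at the 90th percentile. The genes described are 10 listed parts of these systems, namely the ligands Edn1, Edn2, Edn3 and Adm, the receptors Ednra, Ednrb and Calcrl, the enzyme Ece1 and the accessory proteins Ramp2 and Ramp3. A member was measured where a probe set of the platform annotation named that gene and no other, and the probe set with the highest mean stood for the gene. In this way 9 of the 10 were measured, of 19938 genes on the array, and each had 1 such probe set. Ednra had none and was not analysed here.

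All data came from 1 group of 3 arrays, so no contrast between conditions exists. The mice were adult males of the FVB/N strain carrying Tg(TIE2GFP)287Sato, a transgene in which the Tie2 promoter drives green fluorescent protein. Medulla was dissected, digested with collagenase, and sorted for fluorescence, and each sample pooled 2 kidneys. The Tie2 promoter is also known to be active in some blood cells, so the sort is not exclusive to endothelium by design. RNA was amplified once and hybridized to a 1-colour Affymetrix gene array. Precision is limited by having only 3 arrays.

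The label of the tissue was checked on markers. Over all genes, 49.8% were called above and 37.8% below the background limit explained with the levels. All 12 pan-endothelial markers were called above this limit, as were all 5 descending and all 5 ascending vasa recta markers. Of 8 macrophage markers 5 were called below it and 3 were called on neither side. Lymphatic markers were above it in 2 of 5 cases. Pericyte and smooth muscle markers were above it in 3 of 12 cases and below it in 4, and fibroblast markers above it in 2 of 6. Collecting duct markers were above it in 5 of 10 cases, thick ascending limb markers in 4 of 8 and proximal tubule markers in 2 of 7, shares close to or under that of all genes. Called below it were 3 collecting duct, 1 thick ascending limb and 4 proximal tubule markers. Some tubule markers were nevertheless high, with Umod at 11.61, 10.40 and 9.49 (log2) in replicates 1, 2 and 3. Aqp2 had a mean of 9.54 and Fxyd4 of 9.57. The part of tubule cells in the levels of the members was not tested. Fewer cells of a type and less RNA per cell cannot be told apart in such bulk samples.

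Endothelins are short peptides that act on vessels and tubules. A large precursor is cut to an inactive intermediate, which the converting enzyme ECE1 turns into the active peptide. The type A receptor constricts smooth muscle, whereas the type B receptor on endothelial cells releases nitric oxide and prostacyclin and removes the peptide from the circulation. Adrenomedullin dilates vessels and tightens endothelial barriers through the receptor CALCRL, which reaches the cell surface and gains its ligand preference only with a receptor activity modifying protein. RAMP2 or RAMP3 make it an adrenomedullin receptor and RAMP1 makes it a receptor for calcitonin gene-related peptide. The renal medulla is known as a site of strong endothelin production, in which collecting duct cells take a large part.

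Levels are deposited log2 values, and a unit is the same value off the log scale. They were held against 2 limits. The first was 100 units (log2 6.64), the lowest level that the study kept in its screens. The second, called the background limit here, was 7.94 (246 units), the 95th percentile of 1240 probe sets for olfactory, vomeronasal and bitter taste receptors, most of which are silent in kidney. Each gene was tested against each limit by limma, two-sided, with Benjamini-Hochberg adjustment over all 19938 genes. These included the sensory receptor genes, most of which lie under the background limit by the way it was set. They lower the share of all genes called above it. Probes differ in affinity, so a level under the limit does not show a silent gene, and levels of different genes were not ranked.

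All 9 measured members were called above 100 units, a call that 83% of all genes shared. Of the sensory receptor probe sets 34.8% were at 100 units or more in all 3 arrays, so this limit does not tell a gene from background. Against the background limit 6 of 9 members were called above, against 49.8% of all genes, and 1 of 9 was called below, against 37.8% of all genes. The remaining 2 could not be told from the limit, as was the case for 12.3% of all genes. The median distance from the background limit was 3.32 on the log2 scale over the members and 0.20 over all genes. The same 6 members were at or above the background limit in all 3 arrays, as were 55% of all genes, and all 9 reached 100 units in all 3, as did 85.4% of all genes. The 6 members above the limit were Edn1, Ednrb, Ece1, Calcrl, Ramp2 and Ramp3, and the one below it was Adm.

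**Figure D1:**
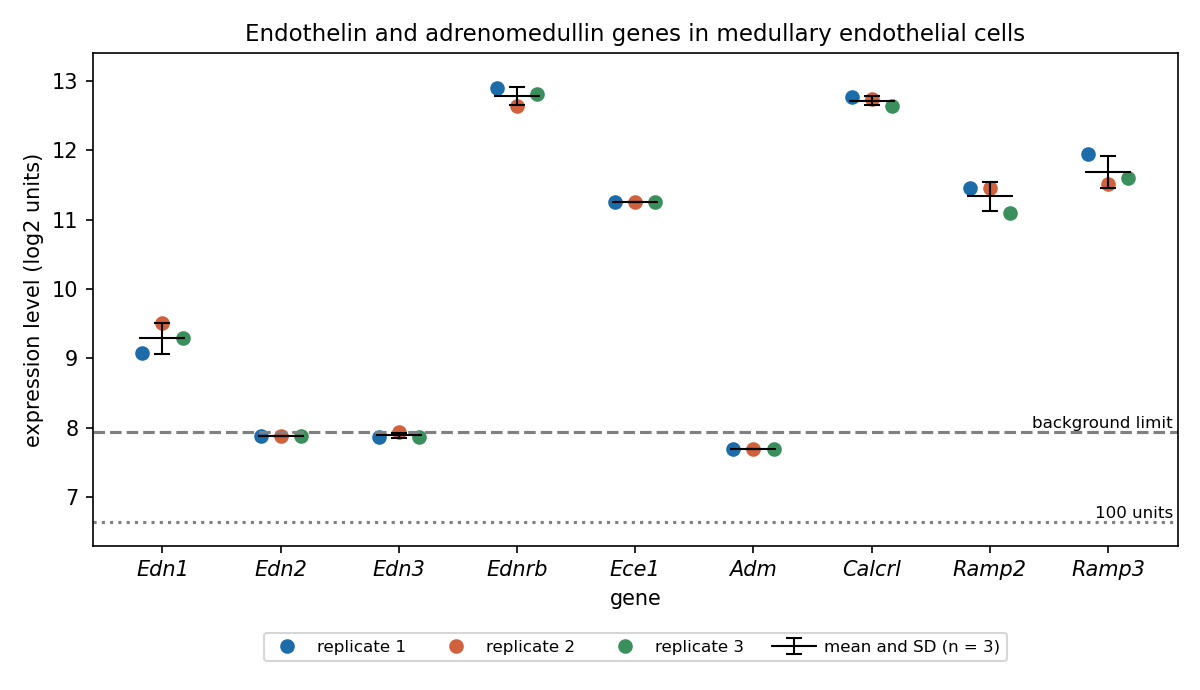
Expression level (y axis, log2 units) of the 9 measured genes (x axis), where points are single arrays and bars give mean ± SD (n = 3); dashed and dotted lines mark the background limit (7.94) and 100 units (6.64). Ednrb, Ece1, Calcrl, Ramp2 and Ramp3 lay above 11 in all 3 arrays, while Edn2, Edn3 and Adm lay just under the background limit in all 3.

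Edn1, the ligand known as the main endothelin of endothelial cells, was the one listed ligand called above the background limit. It stood at 538 units in replicate 1, 731 in replicate 2 and 626 in replicate 3 (log2 9.07, 9.51 and 9.29). Every array was above the background limit, replicate 2 was the highest and replicate 1 the lowest, 1.36-fold apart. The mean was 9.29 ± 0.22 (SD, n = 3), which was 1.35 above the limit with a 95% interval of 1.05 to 1.66 (adjusted p = 0.000523, limma). Of the 1240 sensory receptor probe sets 5 had a higher mean level.

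The promoter of Edn1 is shown because several known regulators of the gene were measured on the same arrays. RefSeq windows of GRCm38.p6 hold 250 bases before and 50 bases after each annotated start, and 9 of the 10 members had one or more, in 12 windows. Letters were searched on both strands for ACGTG, 1 form of the core bound by hypoxia-inducible factors. Also searched were GATAA, bound by GATA factors, and TGACTNA, close to the site of AP-1 factors. The other form of the core, GCGTG, was not searched. The windows in question had been viewed before these letters were chosen. Capitals mark the matches, none of which overlapped one of another kind.
Edn1, chr13:42301226-42301525, plus strand: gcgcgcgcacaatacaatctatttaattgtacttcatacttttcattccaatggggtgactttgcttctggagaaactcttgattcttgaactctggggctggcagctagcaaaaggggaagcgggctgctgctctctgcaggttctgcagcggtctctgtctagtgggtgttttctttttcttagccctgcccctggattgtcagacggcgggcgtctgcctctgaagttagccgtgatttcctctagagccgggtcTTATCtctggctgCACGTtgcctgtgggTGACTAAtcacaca
The Edn1 window held 1 match of each kind, all just after the annotated start. Over 32851 RefSeq windows of the same length, 19.6% held ACGTG, 25.4% GATAA and 13.9% TGACTNA. Such matches describe the letters and are not shown to be bound in these cells. Gata2, an endothelial GATA factor that activates Edn1, was at 8.82 in all arrays, and Jun, a subunit of AP-1, at 11.19 ± 0.17 (SD, n = 3), both called above the background limit (adjusted p = 0.000299 and 3.73e-05, limma). These 2 genes were named after their values had been seen. They were picked from 11 measured regulators of Edn1 or Adm, of which 10 were called above the limit, Klf2 and Klf4 among them.

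Edn2 and Edn3 could not be told from the background limit, and their calls changed with the way it was set. Edn2, a ligand best known from ovary and gut, was at 7.89 (236 units) with the same value in all 3 arrays. Its mean was 0.06 below the limit, with a 95% interval from 0.22 below to 0.11 above, and the test against the limit gave an adjusted p of 0.417 by limma. Edn3, the ligand that guides neural crest cells through the type B receptor, was at 7.87 in replicate 1, 7.94 in replicate 2 and 7.87 in replicate 3. Replicate 2 lay just under the limit and the other two were lower, and the adjusted p was 0.465 by limma. With the limit at the 90th percentile of the sensory receptor probe sets Edn2 and Edn3 were each 0.28 above it (adjusted p = 0.0121 and 0.0131, limma), and with the 99th percentile each was 0.84 below (adjusted p = 0.000303 and 0.000348, limma). Edn2 was also called below the 95th percentile with the ordinary limma prior (adjusted p = 4.48e-08) and after quantile normalization (adjusted p = 0.0128). Both genes were called above 100 units, and 73 and 72 sensory receptor probe sets lay above Edn2 and Edn3. At this background their presence or absence was not detectable.

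Ednrb, the type B receptor of endothelial cells, lay far above both limits. It was at 7610 units in replicate 1, 6391 in replicate 2 and 7186 in replicate 3 (log2 12.89, 12.64 and 12.81). All arrays were close to each other, with replicate 1 and replicate 2 only 1.19-fold apart. The mean of 12.78 ± 0.13 (SD, n = 3) was 4.84 above the background limit, with a 95% interval of 4.62 to 5.06 (adjusted p = 2.81e-05, limma). None of the 1240 sensory receptor probe sets reached this level. The window of Ednrb is shown because it is the receptor gene of the endothelin arm that could be measured.
Ednrb, chr14:103843652-103843951, minus strand: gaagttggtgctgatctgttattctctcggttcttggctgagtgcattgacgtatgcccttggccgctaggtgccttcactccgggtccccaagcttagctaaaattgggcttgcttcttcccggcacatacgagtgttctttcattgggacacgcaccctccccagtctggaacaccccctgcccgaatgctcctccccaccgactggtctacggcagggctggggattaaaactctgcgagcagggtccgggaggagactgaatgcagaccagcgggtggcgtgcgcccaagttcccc
It held none of the searched letters, which says nothing on what acts on the gene. The GCGTG form, which was not searched or marked, can be read in it.

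Ece1, the enzyme that releases active endothelin, was also well above background. All 3 arrays had the same deposited value, 11.26 (2447 units), 3.32 above the background limit with a 95% interval of 3.15 to 3.48 (adjusted p = 2.81e-05, limma). A gene with no spread in the file takes its error from the prior of the test alone, so this interval may be too narrow. The same holds for the intervals of Edn2 and Adm. Ece1 had 4 annotated windows, which belong to different starts of the gene, and the probe set does not tell transcripts apart. One is printed because it was the only one of the 4 that held a match. Over the members, 2 of 12 windows held any match. Of all 32851 windows 25.4% held GATAA, so at least that share held a match of some kind. The exact share was not counted.
Ece1, chr4:137913308-137913607, plus strand: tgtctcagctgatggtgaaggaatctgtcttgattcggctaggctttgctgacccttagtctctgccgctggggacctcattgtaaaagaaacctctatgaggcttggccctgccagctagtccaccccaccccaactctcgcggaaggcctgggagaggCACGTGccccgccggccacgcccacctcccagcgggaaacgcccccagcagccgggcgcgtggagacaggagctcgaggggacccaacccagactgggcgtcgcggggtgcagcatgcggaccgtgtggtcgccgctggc
The capitals are ACGTG read on both strands of 1 palindrome. HIF1A, EPAS1 and their partner ARNT are factors known to bind ACGTG, and their genes are described with the regulators. Which factors, these or others, bind the palindrome in these cells was not tested.

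Adm, the adrenomedullin precursor, was the single member called below the background limit. It had the same value in all arrays, 7.69 (206 units), so that no array reached the limit. The mean was 0.25 below it, with a 95% interval of 0.42 to 0.09 below (adjusted p = 0.0166, limma). As for Ece1, the error behind this call came from the prior alone. It was 1.05 above 100 units (adjusted p = 0.000113, limma), a limit that 34.8% of the sensory receptor probe sets also reached in all arrays. Of these 1240 probe sets 107 lay higher than Adm. The side of the limit on which Adm fell depended on where that limit was set, since with the 90th percentile of the same probe sets it was 0.08 above (adjusted p = 0.261, limma).
Adm, chr7:110627407-110627706, plus strand: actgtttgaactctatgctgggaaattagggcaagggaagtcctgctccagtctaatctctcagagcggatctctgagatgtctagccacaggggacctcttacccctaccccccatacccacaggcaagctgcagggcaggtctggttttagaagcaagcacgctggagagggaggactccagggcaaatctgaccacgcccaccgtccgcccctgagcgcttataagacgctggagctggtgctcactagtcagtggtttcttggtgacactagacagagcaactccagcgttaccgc
The window is shown because adrenomedullin is a known target of hypoxia-inducible factors, and it held none of the searched letters. The GCGTG form of their core was not searched or marked. It can be read in the printed window on the other strand, as CACGC, so the window does not lack that form. Whether it is bound in these cells was not tested.

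**Figure D2:**
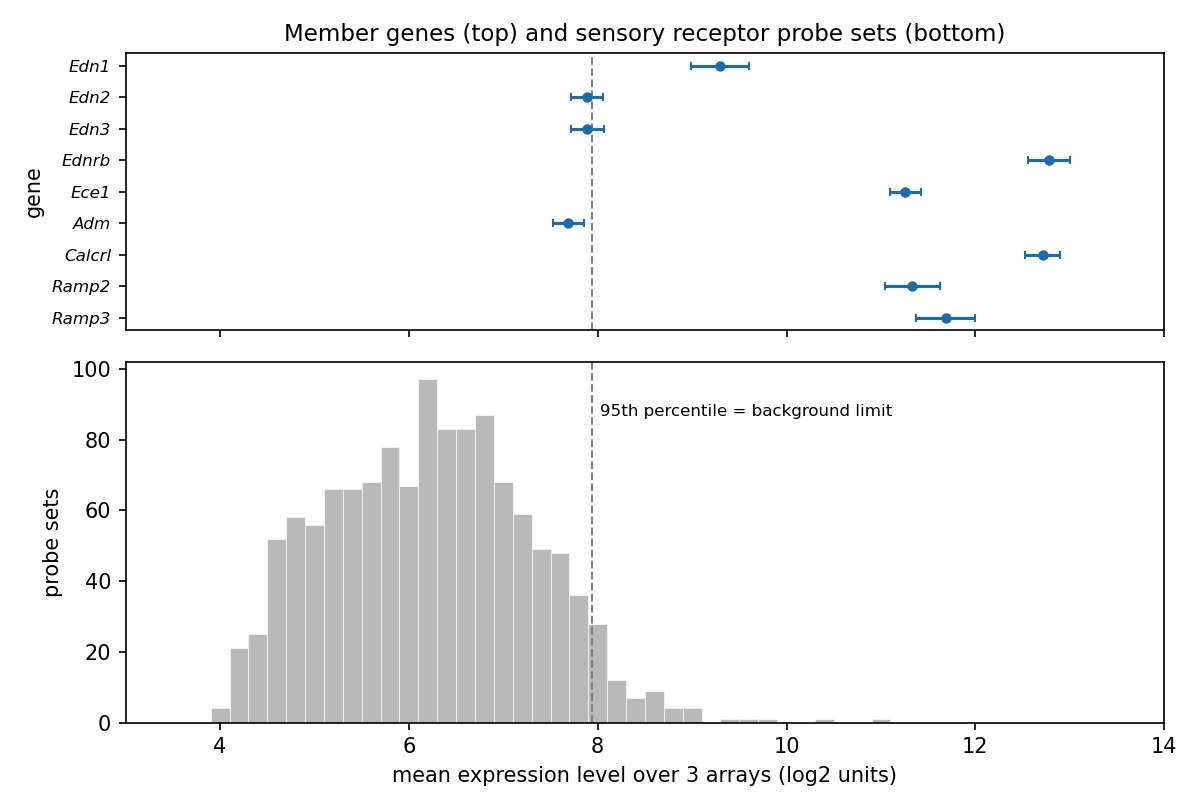
Mean level over 3 arrays (x axis, log2 units) of the 9 measured genes with 95% moderated intervals (top) and of 1240 sensory receptor probe sets as a histogram in number of probe sets (bottom); the dashed line is their 95th percentile, 7.94. Intervals of Edn2 and Edn3 cross the line, that of Adm ends below it, and Ednrb, Ece1, Calcrl, Ramp2 and Ramp3 lie beyond the highest sensory probe set at 10.9.

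Calcrl and its alternative partners Ramp2 and Ramp3 were all above background. Calcrl, the receptor itself, was at 6979 units in replicate 1, 6851 in replicate 2 and 6358 in replicate 3 (log2 12.77, 12.74 and 12.63). The arrays differed by no more than 1.10-fold, and replicate 3 was the lowest. The mean was 12.72 ± 0.07 (SD, n = 3), 4.77 above the limit with a 95% interval of 4.59 to 4.96 (adjusted p = 2.81e-05, limma).

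Ramp2, the partner that with Calcrl is required for normal vessel development in mice, was at 2804 units in replicates 1 and 2 and 2185 in replicate 3. Replicate 3 was 1.28-fold lower than the others, yet far above the limit. The mean was 11.33 ± 0.21 (SD, n = 3), 3.39 above the limit with a 95% interval of 3.10 to 3.68 (adjusted p = 4.23e-05, limma).

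Ramp3, the alternative partner, which steers the receptor to recycling after it has bound its ligand, was at 3954 units in replicate 1, 2917 in replicate 2 and 3090 in replicate 3. Replicate 1 stood 1.36-fold above replicate 2, and replicate 3 lay nearer to replicate 2. The mean was 11.68 ± 0.23 (SD, n = 3), 3.74 above the limit with a 95% interval of 3.43 to 4.06 (adjusted p = 4.09e-05, limma). Ramp1, which would turn Calcrl into a receptor for calcitonin gene-related peptide, was by contrast called below the limit, at 7.30 in all arrays (adjusted p = 0.000789, limma).

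The SD over the arrays varied between members. Equal deposited values in all arrays, as for Edn2, Ece1 and Adm, do not measure stability, since what made them equal was not tested. The SD was 0.22 for Edn1, 0.21 for Ramp2 and 0.23 for Ramp3, each above the SD of 89.1% to 90.8% of all genes. For Ednrb (0.13), Calcrl (0.07) and Edn3 (0.04) the SD was above that of 81.9%, 71.9% and 63.8% of all genes. Edn2, Ece1 and Adm had 1 value in all arrays, as had 46.3% of all genes, 2 of the 9 members had 2 different values, as had 29.7% of all genes, and 4 members had 3, as had 24% of all genes. The median SD was 0.07 over the members and 0.0079 over all genes, and among those with any spread it was 0.17 for members and 0.08 for all genes. Without replicate 3 the median over the members was 0.019, against 0.059 without replicate 1 and 0.059 without replicate 2, and the median over all genes was 0 in each case.

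Replicate 2 was the highest array for Edn1 and Edn3 and the lowest for Ednrb and Ramp3. Replicate 1 was the highest for Ednrb, Ramp3 and Calcrl, and replicate 3 the lowest for Calcrl and Ramp2. Some marker lists moved between the same arrays. The summed level of the 5 descending vasa recta markers was 9568 units in replicate 1, 12531 in replicate 2 and 10750 in replicate 3, the same order as Edn1, although only 3 of the 5 markers were highest in replicate 2. That of the 12 pan-endothelial markers was 60111, 52761 and 54116 units in replicates 1, 2 and 3, the same order as Ednrb, with 9 of the 12 highest in replicate 1. That of the 8 thick ascending limb markers was 6930, 4205 and 2741 units, the same order as Calcrl, with 4 of the 8 highest in replicate 1. That of the 10 collecting duct markers was 3252, 3895 and 2951 units, with 4 of the 10 highest in replicate 2. Among these 4 was Fxyd4, at 9.24, 10.32 and 9.16 (log2) in replicates 1, 2 and 3, which weighs heavily in the sum. The summed level of the 12 immediate early genes, which digestion of tissue can induce, was 8526, 8148 and 8225 units, again the order of Ednrb. Only 2 of these 12 genes were highest in replicate 1, against 1 in replicate 2 and 3 in replicate 3. Among the 2 was Jun, at 11.38, 11.04 and 11.17 (log2) in replicates 1, 2 and 3, so this order is not that of most genes in the list. With 3 arrays few orders are possible, so lists and genes often share one. The part of these lists in the spread of the members was not tested, and 3 arrays could not carry such a test.

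**Figure D3:**
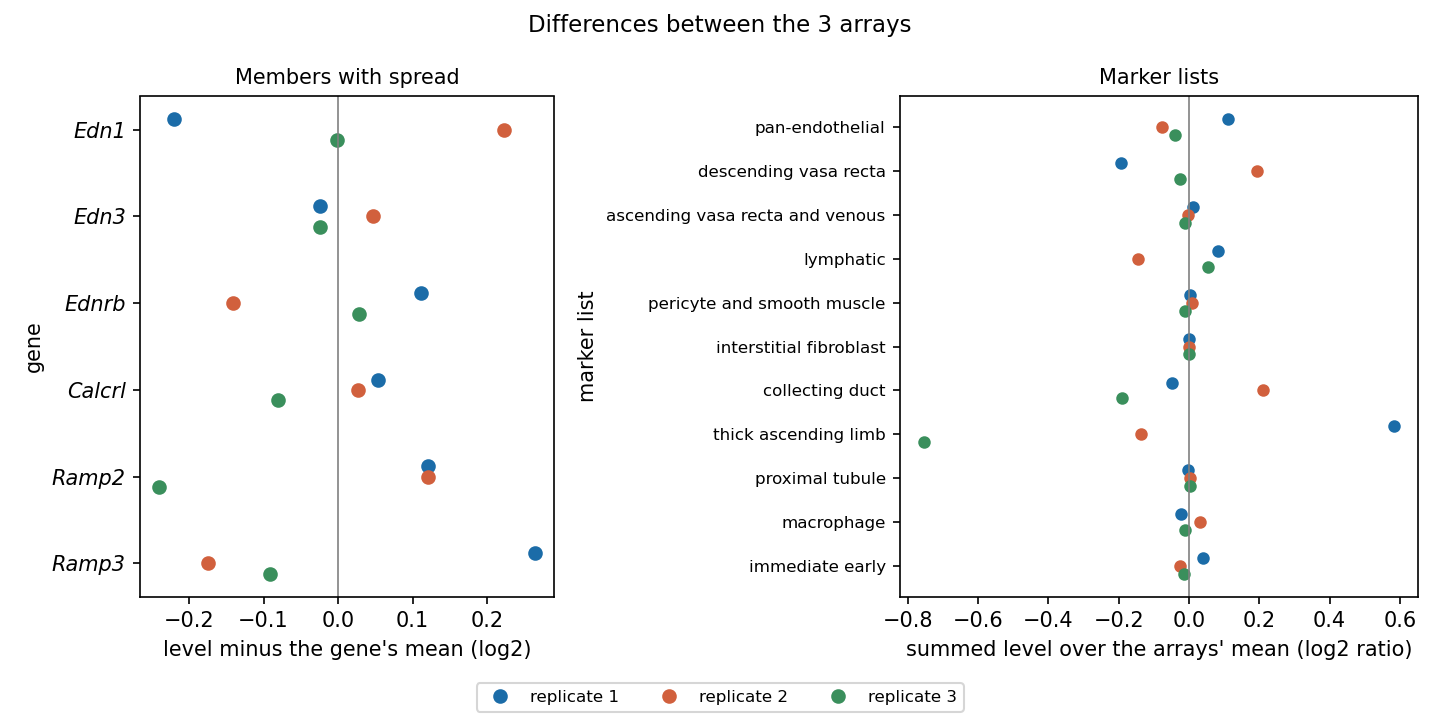
Left, level in each array minus the mean of the gene (x axis, log2) for the 6 members with any spread; right, summed level of each marker list in each array over its mean across arrays (x axis, log2 ratio), with 1 colour per replicate. Edn1 and the summed level of the descending vasa recta markers are lowest in replicate 1 and highest in replicate 2, and the thick ascending limb list has the widest spread of the marker lists.

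The genes that work with these ligands and receptors were taken from 5 lists with 64 genes, of which 56 were measured. Of these 43 were called above the background limit (76.8%, against 49.8% of all genes), 10 were called below it and 3 were not told from it. The median distance from the limit was 1.42 over these genes and 0.20 over all genes. As the lists were written with many general signaling genes, such a share is not particular to the endothelin and adrenomedullin systems.

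Of 7 genes for endothelin processing and breakdown 3 were above the limit and 4 below. Furin, the protease that makes the first cut of the precursor, was at 8.98 ± 0.02 (SD, n = 3), and the related convertase Pcsk7 at 8.82 in all arrays. Ctsa, the lysosomal carboxypeptidase cathepsin A, known to degrade endothelin, was at 10.18 in all arrays. The genes below the limit included Ece2, a second converting enzyme, at 7.61, Kel, an endopeptidase that can process the Edn3 product, at 6.54, and Mme, the peptide-degrading neprilysin, at 7.11 ± 0.03. Kel did not reach 100 units.

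Of 17 measured genes that couple endothelin receptors to the cell interior, 15 were above the limit. The Gq class subunits Gnaq, at 10.58 in all arrays, and Gna11, at 10.99 ± 0.28 (SD, n = 3), were among them, and so was Gna12, a subunit of another G protein class, at 9.08 ± 0.16. Plcb2, the phospholipase C form of blood cells, was below the limit at 7.48 ± 0.04 (adjusted p = 0.00267, limma). Arrb2, one of the arrestins that end receptor signaling, was at 7.94 ± 0.04 and could not be told from the limit.

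Of 9 measured genes of the calcitonin peptide family and its receptors 5 were above the limit, 3 below and 1 not told from it. Pam, the enzyme that amidates adrenomedullin, a step needed for activity, was at 9.45 ± 0.06 (SD, n = 3, adjusted p = 8.38e-05, limma). Gpr182, an endothelial receptor once listed as an adrenomedullin receptor, was at 10.45 ± 0.06 (adjusted p = 3.15e-05, limma). Crcp, a protein of the calcitonin gene-related peptide receptor that is also a subunit of RNA polymerase III, was at 9.08 ± 0.36. The peptide genes Adm2, at 8.18 in all arrays, and Calcb, at 8.39 ± 0.05, were 0.24 and 0.45 above the limit. Iapp, the gene of amylin, at 7.49, and the calcitonin receptor Calcr, at 7.46 ± 0.03, were called below, as was Ramp1. Ackr3, a scavenger receptor for adrenomedullin, was at 7.96 in replicates 1 and 2 and 7.46 in replicate 3, on either side of the limit, and was not told from it (adjusted p = 0.355, limma).

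Of 12 measured genes of the cyclic AMP arm, through which the adrenomedullin receptor acts, 10 were above the limit. The adenylyl cyclases Adcy4, at 9.96, and Adcy6, at 9.26 ± 0.08 (SD, n = 3), were above it, and Adcy7, at 8.29, was 0.35 above. Adcy3 at 7.63 and Adcy5 at 7.65, both cyclases, were below it (adjusted p = 0.00847 and 0.0109, limma).

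Of 11 measured regulators of Edn1 or Adm 10 were above the limit. Hif1a was at 11.31 in all arrays, Epas1, the hypoxia-inducible factor typical of endothelium, at 12.24 ± 0.13 (SD, n = 3), and their dimer partner Arnt at 10.02. Fos, the other subunit of AP-1, was at 8.02 and could not be told from the limit (adjusted p = 0.28, limma).

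**Figure D4:**
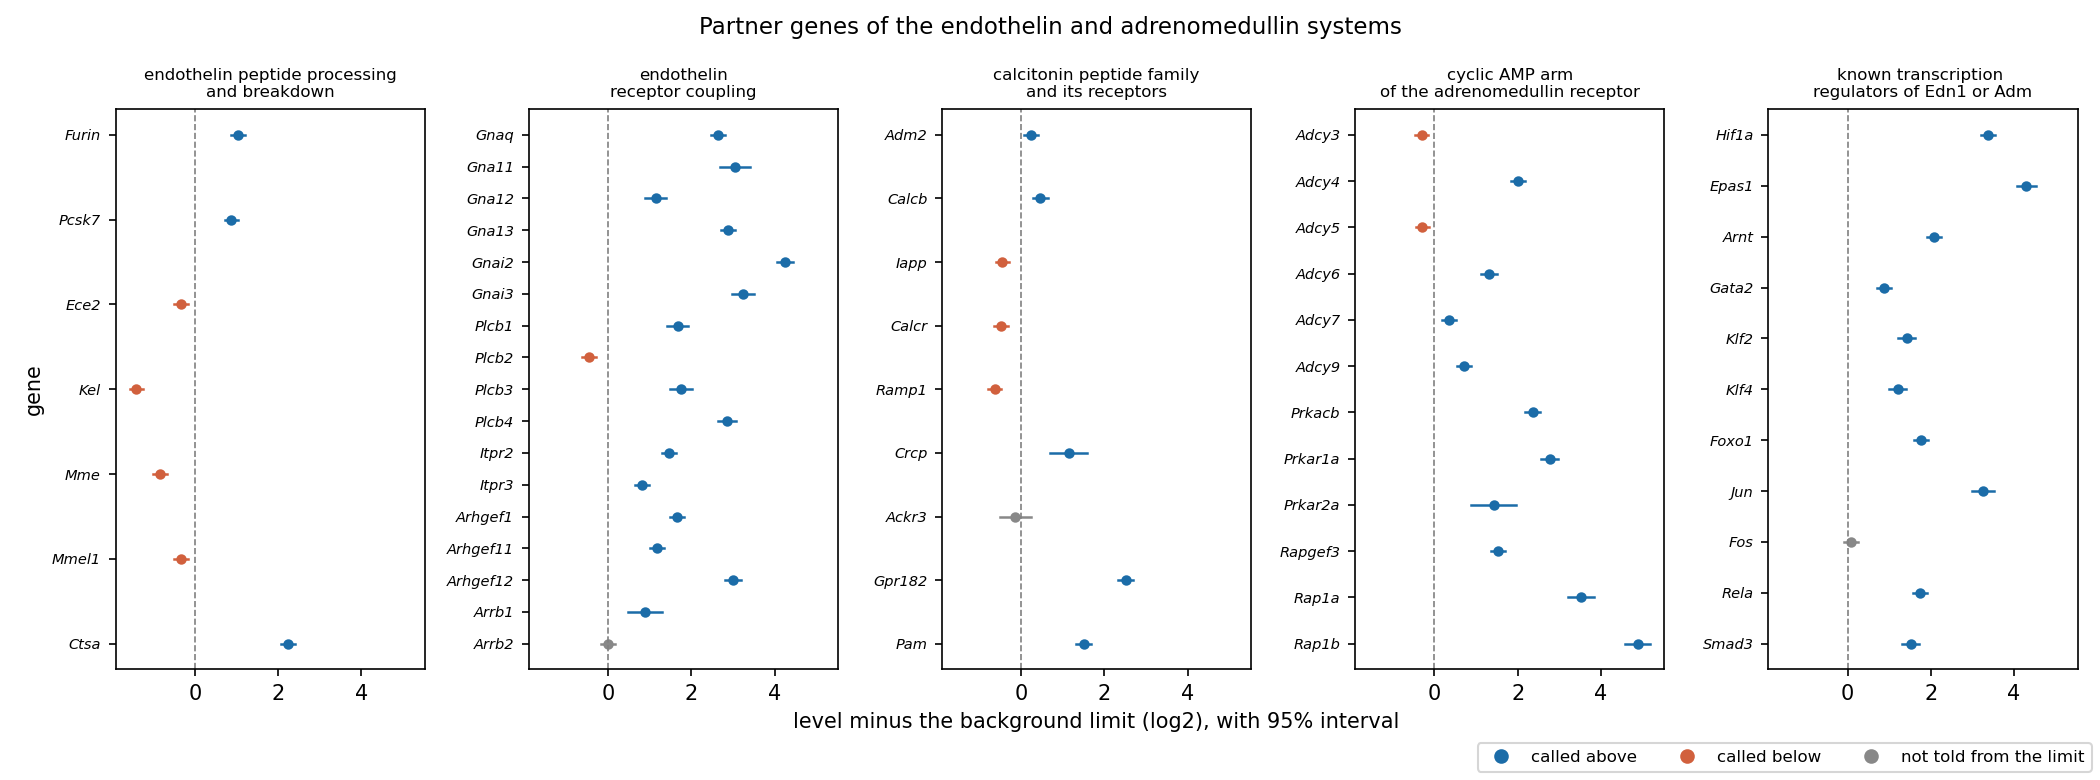
Mean level minus the background limit (x axis, log2) with 95% moderated intervals for 56 measured partner genes in 5 lists; blue was called above the limit, orange below, and grey lay on neither side by the test. The calcitonin family list holds genes on both sides, with Gpr182 at 2.51 above and Ramp1 at 0.64 below.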

How the data were processed

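Affymetrix Mouse Gene 1.0 ST arrays of 3 sorted samples were used, each from 2 pooled kidneys. The deposited table gives a log2 level for each probe set, made by the authors with Expression Console of Affymetrix. Robust multi-array averaging is named in their text, the software version and the genome build being not given in the sources used here. A log2 scale was inferred from the values, 3.55 to 14.4, and the median levels of the arrays differed by 0.03. Scanner files and scan dates were not used, so no batch was tested.

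Of 35557 probe sets 21789 named 1 gene, 1621 several and 12147 none. Symbols were updated through Entrez identifiers to RefSeq GRCm38.p6 for 21698 probe sets (99.6%). An intercept was fitted to the log2 levels by limma. Because 46.3% of genes had the same value in all arrays, the prior variance was taken from genes with 3 different values (prior SD 0.15, 1.91 degrees of freedom). Adjusted p under 0.05 was called. The test was checked on simulated data. The limits themselves were treated as exact. An exact sign test of 3 arrays cannot go below p = 0.25, so no such test was run.

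The members, the lists, the limits and the tests were chosen with earlier results of these data known. All 10 members were to be named. From each partner list the rule named up to 3 genes on the side of the background limit with fewer genes, in alphabetical order, and the first 3 measured on the other side in the order in which the list was written, and every gene of the calcitonin list. Alternatives changed the prior, the normalization, the choice of probe set, the filter on low values, the symbols, both limits and the replicates used. Fits were run with limma 3.58.1 in R 4.3.3, and all else with pandas 2.3.3, numpy 2.4.6 and matplotlib 3.10.9 under Python 3.11.15.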

Additional observations from a re-analysis of the deposited data

Results flagged for a closer look

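A probe set annotated to Ramp2 together with 1 other gene was left out of the report, which used only probe sets naming a single gene. Its level was 13.61 in replicate 1, 13.61 in replicate 2 and 13.55 in replicate 3 (mean 13.59), 5.65 above the background limit on the log2 scale. How much of this signal belongs to Ramp2 was not tested.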

How the results depend on the processing

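Under the 11 alternatives run for each count, all 9 members were called above the unit limit except with a limit of 200 units, where 8 were, and 6 to 8 were called above the background limit. Ednrb, Ece1, Calcrl, Ramp2, Ramp3 and Edn1 were above it under every one of these alternatives, with adjusted p of at most 0.00868 (limma). The count below the limit was less steady. It was 1 as reported and 1 without any single replicate, and became 2 with the ordinary limma prior and 2 after quantile normalization, when Edn2 was added. It became 3 with the limit at the 99th percentile of sensory receptor probe sets, and 0 by limma with the limit at the 90th percentile (0 at an unadjusted p under 0.05). There Edn2 and Edn3 lay 0.28 above the limit each (adjusted p = 0.0121 and 0.0131, limma) and Adm lay 0.080 above the limit. The partner genes above the limit numbered 34 to 45. Over all genes, 9933 were above the limit, which became 5814 at the 99th percentile. The genes below it numbered 7544, which became 12057 at the 99th percentile and 4714 when genes under 100 units in every array were left out, since fewer genes were tested. Of 99 results for single members and alternatives 92 kept their side and their call. As each member had 1 probe set, the choice of probe set could not move its level. The symbols and the filter on low values left these levels unchanged as well. Such results add little to the 92. The median SD of the members, 0.07, was 0.02 to 0.06 without 1 replicate. No paired analysis was possible because there is only 1 group. Signal over background limits what can be said of Edn2, Edn3 and Adm.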
